A study of Homo sapiens with 2 samples.

Results

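The genes described here encode the proteins of the cytosolic ribosome. They were taken by name, as RPL, RPS, RPLP or RPSA genes without the names of pseudogenes and of the RPS6 kinases, and they came to 84 of the 25240 genes listed. Of these, 52 encode proteins of the large subunit or relatives of them and 32 proteins of the small subunit or relatives. In all, 81 reached 1 FPKM (fragment number scaled to transcript length and library size) in at least 1 library and are called measured. RPL3L was listed at 0 in both libraries, and RPL10L stood at 0.0980 FPKM in shRON cells and 0.0927 FPKM in shNT cells. FAU, GNB2L1 and RPL36AL, which encode ribosomal or ribosome-bound proteins under other names, are outside the rule and were looked at separately.

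RNA was sequenced from T47D, an established human luminal breast cancer line. The shRON cells carried a hairpin against RON, the receptor tyrosine kinase encoded by MST1R, and the shNT cells a non-targeting hairpin, with 1 library for each. Both were transduced, selected in puromycin and kept in it, and grown in high-glucose DMEM with serum. The table of the shNT library is named as wild type, and the label was followed. With 1 library per group there was no replicate check, so every difference below is between these 2 libraries, with no p-value.

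The ribosome reads mRNA with its small subunit and joins amino acids with its large one. Each ribosomal protein is needed in one copy per ribosome, apart from the stalk proteins, and the mRNAs are among the most abundant of a growing cell. Most of these mRNAs begin with a C and a run of pyrimidines, the 5′ terminal oligopyrimidine (TOP) tract, through which mTOR signalling and LARP1 set their translation. Several of the proteins have a relative encoded by another gene (a paralog), such as RPS27L for RPS27.

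The listed transcripts held an estimated 1.13e+07 fragments in shRON cells and 1.17e+07 fragments in shNT cells. MST1R, the targeted gene, stood at 9.10 FPKM in shRON cells and 12.1 FPKM in shNT cells, 25.1% lower, with an approximate counting interval of the ratio of 0.674 to 0.832. All 9 luminal markers examined were measured. They summed to 6516 FPKM in shRON cells and 8781 FPKM in shNT cells, mostly from KRT8, KRT18 and KRT19. Of the 9, 3 were at least 1.5-fold lower, against 8.84% of all measured genes. The log2 ratios of the 9 markers ran between -1.11 and 0.27, with a median of -0.40, which was below that of the ribosomal protein genes. The 4 immune and 2 endothelial markers were listed at 0 in both libraries. The 3 basal markers summed to 1.34 FPKM in shRON cells and 0.365 FPKM in shNT cells, and the 2 collagen genes taken as fibroblast markers to 5.80 FPKM in shRON cells and 3.96 FPKM in shNT cells. COL1A1 stood at 4.27 FPKM in shRON cells and 3.95 FPKM in shNT cells. COL3A1 stood at 1.53 FPKM in shRON cells and 0.0103 FPKM in shNT cells. The part of MST1R and of the markers in the results below was not tested.

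The starts of these genes show the feature most of them share. In the 30 bases around the transcription start given by RefSeq on GRCh38.p14, 15 on each side and 5′ to 3′, capitals mark a C followed by at least 4 pyrimidines whose C lies within 5 bases of the start. The first 6 genes were chosen to span the lowest, the most abundant and the highest ratios, and the last 3 are relatives of ribosomal protein genes:
RPLP1: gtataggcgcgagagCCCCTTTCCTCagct
RPS27: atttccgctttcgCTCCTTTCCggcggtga
RPS24: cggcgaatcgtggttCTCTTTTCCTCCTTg
RPL35A: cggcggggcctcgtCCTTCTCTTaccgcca
RPL37A: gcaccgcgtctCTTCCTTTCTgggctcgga
RPL28: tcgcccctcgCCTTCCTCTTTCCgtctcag
RPS27L: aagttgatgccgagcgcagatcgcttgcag
RPL22L1: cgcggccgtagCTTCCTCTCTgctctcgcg
RPL7L1: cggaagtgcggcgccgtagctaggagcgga
They lie on GRCh38.p14 at chr15:69452803-69452832 (RPLP1), chr1:153990747-153990776 (RPS27), chr10:78033848-78033877 (RPS24), chr3:197950175-197950204 (RPL35A), chr2:216498829-216498858 (RPL37A), chr19:55385917-55385946 (RPL28) and chr6:42879601-42879630 (RPL7L1) on the plus strand. RPS27L (chr15:63157463-63157492) and RPL22L1 (chr3:170870181-170870210) lie on the minus strand.

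RefSeq starts were matched by symbol for 67 of the 84 genes. The tract was found in 54 of the 67 (80.6%), against 25.2% of all 27305 genes of the same table. Of the matched genes that are not such relatives, 53 of 62 carried it, and of the 5 matched relatives 1 did, RPL22L1. In windows of 300 bases, 250 before the start and 50 after, the motif CCGGAAG, searched on both strands, stood in 35.8% of the members and 12.2% of all genes. AAGATGG stood in 13.4% of the members and 7.11% of all genes, and TATAAA in 10.4% of the members and 13.99% of all genes. The median log2 ratio was -0.14 over the 53 measured core genes that carry the pyrimidine tract and -0.06 over the 9 that do not, and the ranges, -0.83 to 0.22 and -0.56 to 0.14, overlapped.

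Together the 84 genes held 15.6% of all FPKM in shRON cells and 17.3% in shNT cells. The large-subunit genes held 9.52% in shRON cells and 10.6% in shNT cells, and the small-subunit genes 6.12% in shRON cells and 6.62% in shNT cells. As a share of the bases assigned to listed transcripts, which weights long transcripts more, the genes held 5.30% in shRON cells and 6.03% in shNT cells. The approximate 95% Clopper-Pearson intervals on the estimated fragments were 5.28% to 5.31% in shRON cells and 6.02% to 6.05% in shNT cells, and cover counting error only. Because FPKM are shares of a library, fewer ribosomal protein mRNAs and more of other mRNAs cannot be told apart here, nor can fewer expressing cells and less RNA per cell.

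**Figure D1:**
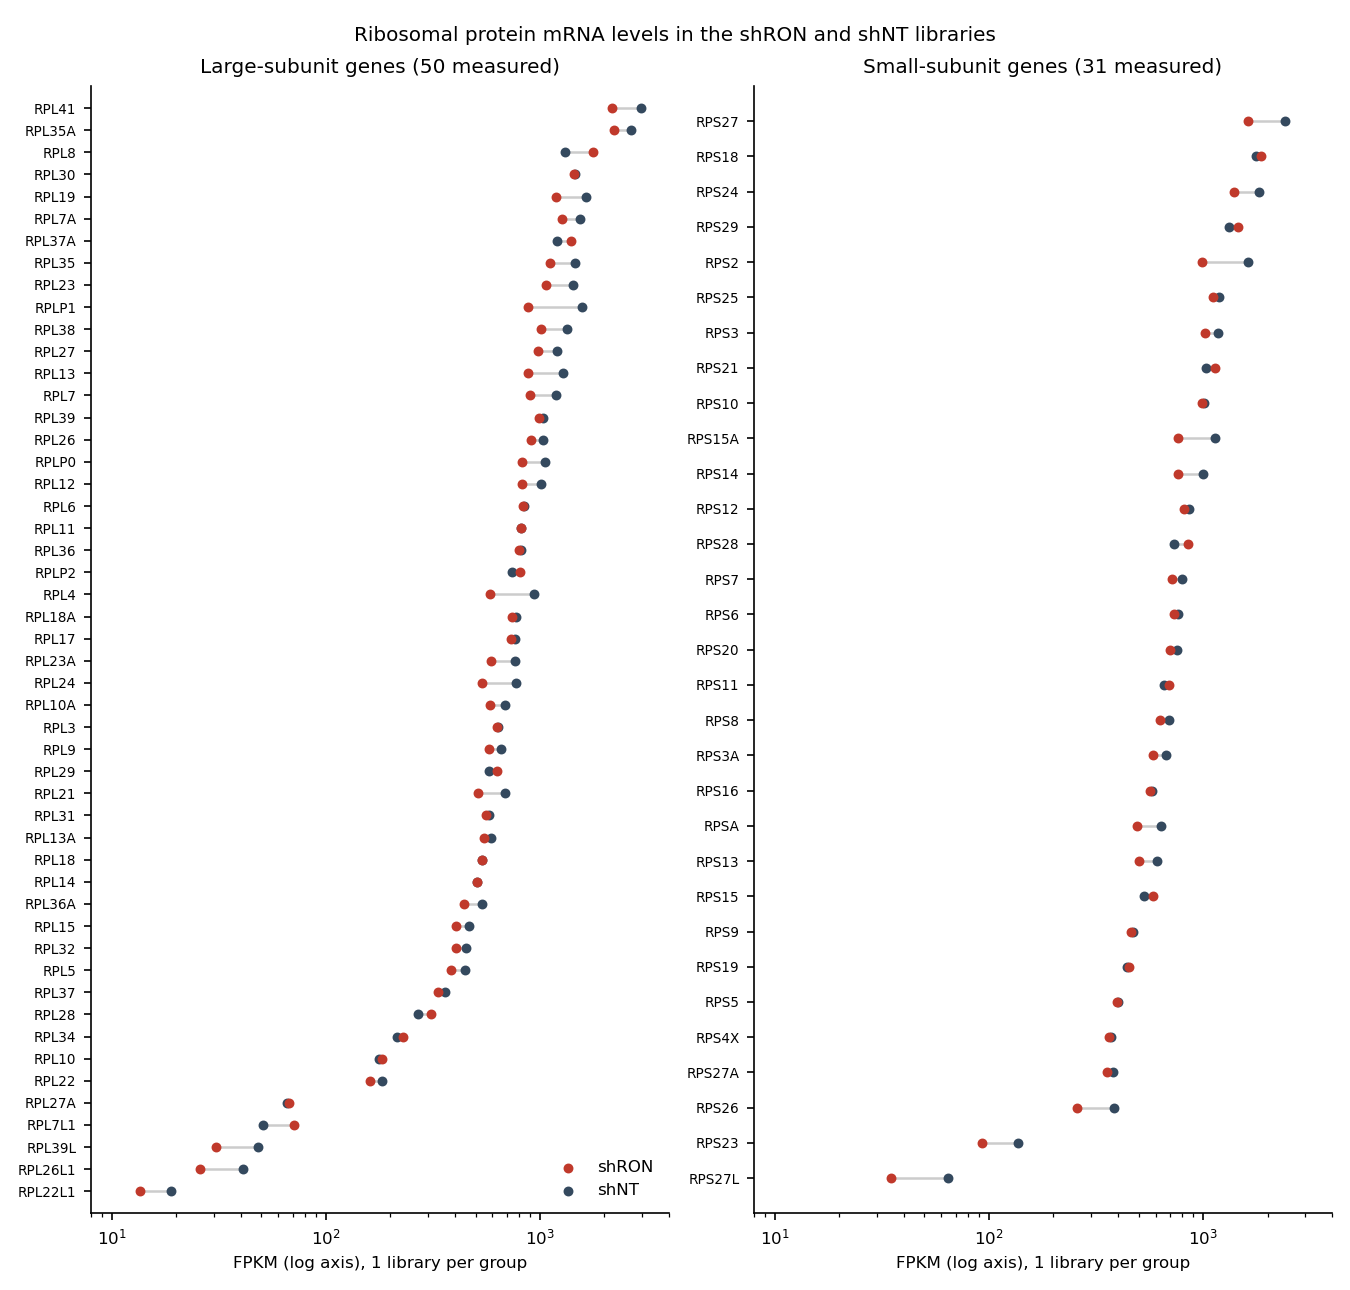
FPKM on a log axis of the 81 measured ribosomal protein genes, large subunit left and small subunit right, sorted by mean level. Red points are the shRON library and dark points the shNT library, 1 library each. RPLP1, RPS2 and RPL4 show wide gaps to the left, and RPL8 lies to the right of its shNT value.

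The levels of the 81 measured genes ran between 13.5 and 2208 FPKM in shRON cells, with a median of 697 FPKM. In shNT cells they ran between 19.0 and 2968 FPKM, with a median of 757 FPKM. RPL35A, RPL41, RPS18, RPS27 and RPS24 were the 5 most abundant by mean level. RPL41, which encodes one of the smallest proteins known, stood at 2176 FPKM in shRON cells and 2968 FPKM in shNT cells. RPL35A, mutated in some families with Diamond-Blackfan anaemia, stood at 2208 in shRON and 2667 FPKM in shNT cells, so the top pair changed places.

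The order of the genes was largely kept, with a Spearman rho of 0.96 between the libraries over the 81 genes, which share the same pair of libraries. Of the 10 most abundant in each, 6 were shared. Long listed transcripts went with low FPKM (rho -0.57 between mean level and length). RPL27A, listed at 4879 bases, stood at 67.5 FPKM in shRON cells and 65.9 FPKM in shNT cells. RPS23, listed at 3314 bases, stood at 93.1 in shRON and 136 FPKM in shNT cells. Such lengths divide the fragment number, so levels of different members depend on the listed transcript. The log2 ratios between libraries showed little relation to length (rho -0.06).

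The ribosomal protein genes were on the whole slightly lower in shRON cells. The log2 ratio of FPKM + 1, shRON over shNT, had a median of -0.14, with quartiles at -0.39 and -0.02, against a median of 0.04 over all 12484 measured genes. It was below 0 in 64 of the 81 genes, against 46.1% of all measured genes. That count depends on the scaling: 50 were below 0 when both libraries were set to the same FPKM total, and 67 when the median of all genes was subtracted. The 100 other genes with a mean of 300 FPKM or more had a median of -0.15, close to that of the ribosomal protein genes. The standard deviation of the ratios was 0.27 among ribosomal protein genes, 0.60 among those 100 genes and 0.53 over all measured genes.

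No member was 1.5-fold higher, against 9.95% of all measured genes and 14% of the 100 abundant others. Of the 81, 6 were 1.5-fold lower, against 8.84% of all measured genes and 13% of the abundant others. No member reached 2-fold, a size passed upward by 3.32% and downward by 2.17% of all measured genes. The share of members 1.5-fold lower was thus near the background. The 6 were RPS27L, RPLP1, RPS2, RPL4, RPL26L1 and RPL39L, and 3 of them are relatives of ribosomal protein genes rather than core genes. Just outside were RPS15A at -0.57 and RPS27 at -0.57, against RPL39L at -0.63 just inside. RPL7L1 was highest, at 0.46.

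RPLP1 encodes an acidic protein of the stalk, the arm of the large subunit that recruits elongation factors. It stood at 879 FPKM in shRON cells and 1566 FPKM in shNT cells, 43.9% lower (log2 ratio -0.83, approximate counting interval of the FPKM ratio 0.544 to 0.579). The gene lies on hg19 chromosome 15 from 69745159 to 69747884. Its partners in the stalk had smaller differences. RPLP0, which anchors the stalk, stood at 827 FPKM in shRON cells and 1054 FPKM in shNT cells (-0.35), and RPLP2 at 806 in shRON and 737 FPKM in shNT cells (0.13). RPL4, a core large-subunit protein whose gene is also on chromosome 15, stood at 582 FPKM in shRON cells and 935 FPKM in shNT cells (-0.68).

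RPS2, which lines the path by which mRNA enters the small subunit, stood at 986 FPKM in shRON cells and 1612 FPKM in shNT cells (-0.71, interval of the ratio 0.599 to 0.625). It lies on chromosome 16 from 2012062 to 2014827. The other entry proteins differed less: RPS3 stood at 1021 in shRON and 1174 FPKM in shNT cells (-0.20) and RPS9 at 462 in shRON and 470 FPKM in shNT cells (-0.02). RPS15A, also on chromosome 16, stood at 762 FPKM in shRON cells and 1131 FPKM in shNT cells (-0.57), and RPL13, the third gene there, at 882 in shRON and 1282 FPKM in shNT cells (-0.54). The 3 measured members of that chromosome, which encode proteins of both subunits, were thus all lower, RPS2 by more than the other two.

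RPS27, a small-subunit protein with a zinc finger, stood at 1623 FPKM in shRON cells and 2408 FPKM in shNT cells (-0.57). RPS26, which lies at the mRNA exit of the small subunit, stood at 259 in shRON and 382 FPKM in shNT cells (-0.56), and RPS23, near the decoding site, had a ratio of -0.54. Of 14 measured genes on a list of genes mutated in Diamond-Blackfan anaemia, an inherited failure of red cell production, 0 were 1.5-fold higher and 0 lower, against 9.95% and 8.84% of all measured genes, with a median of -0.20.

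The highest ratios of core genes were modest. RPL8, near the catalytic centre of the large subunit, stood at 1759 FPKM in shRON cells and 1315 FPKM in shNT cells (0.42, interval of the ratio 1.31 to 1.37). RPS28 stood at 852 in shRON and 730.0 FPKM in shNT cells (0.22), RPL37A at 1389 in shRON and 1207 FPKM in shNT cells (0.20) and RPL28 at 310.4 in shRON and 270.1 FPKM in shNT cells (0.20). RPS15, RPS21, RPS29, RPL29 and RPLP2 had ratios between 0.13 and 0.14. RPS18, a highly abundant small-subunit gene, stood at 1869 FPKM in shRON cells and 1758 FPKM in shNT cells (0.09).

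RPL5 and RPL11 bind the smallest ribosomal RNA and, when free, the ubiquitin ligase MDM2. RPL5 stood at 383 FPKM in shRON cells and 447 FPKM in shNT cells (-0.22), and RPL11 at 813 in shRON and 814 FPKM in shNT cells (-0.0027). RPS6, the target of the S6 kinases, stood at 729 in shRON and 760.5 FPKM in shNT cells (-0.06). RPS27A, made as a fusion to ubiquitin, stood at 356 in shRON and 378 FPKM in shNT cells (-0.09), and RPSA, also described as a laminin receptor, at 493 in shRON and 638 FPKM in shNT cells (-0.37).

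The subunits lay close together. The median log2 ratio was -0.19 over 50 large-subunit genes and -0.10 over 31 small-subunit genes, while the means were -0.19 and -0.18. The standard deviation was 0.27 within each. With the ratio of neighbouring genes subtracted, as described next, both medians were -0.21. Of the 8 genes whose proteins surround the exit of the peptide tunnel, 8 were below 0, against 64 of the 81 members and 46.1% of all measured genes. None of the 8 reached 1.5-fold, and their median was -0.19.

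The ratio of a member went with its position in the genome. For each member, the median log2 ratio of the 50 nearest measured genes that are not members, 25 on each side and fewer at chromosome ends, was taken as its neighbourhood. Over the 81 genes, the member's own ratio and that of its neighbourhood correlated with a Pearson r of 0.84 and a Spearman rho of 0.78. This describes 1 pair of libraries, and members close together share neighbours. The same measure over all 12402 other genes with a neighbourhood gave an r of 0.39 and a rho of 0.44, and over the 100 abundant others an r of 0.43 and a rho of 0.54. Over 75 mitochondrial ribosomal protein genes r was 0.73 and rho 0.70, and over 37 proteasome genes r was 0.38 and rho 0.59.

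**Figure D2:**
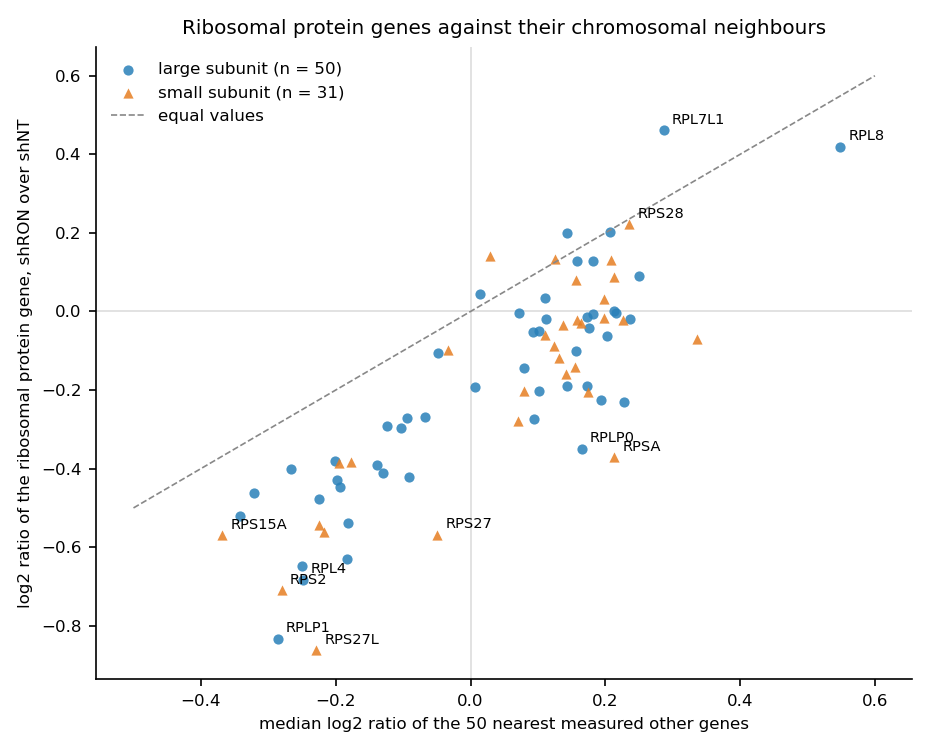
Log2 ratio of each ribosomal protein gene (vertical axis, shRON over shNT) against the median log2 ratio of its 50 nearest measured other genes (horizontal axis). Circles are 50 large-subunit and triangles 31 small-subunit genes, and most lie below the dashed line of equal values.

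The 29 members whose neighbourhood was below 0 were all below 0 themselves, against 72.5% of 4679 other genes in such neighbourhoods. The 29 had a median of -0.45 and included the 6 genes that were 1.5-fold lower, beside 816 of those 4679 other genes. The summed level of the 29 was 24149 FPKM in shRON cells and 32670.0 FPKM in shNT cells, 26.1% lower. The 52 members in neighbourhoods at or above 0 had a median of -0.03 and summed to 35635 FPKM in shRON cells and 36102 FPKM in shNT cells, 1.30% lower. Of the 52, 35 were below 0, against 29.7% of the other genes in such neighbourhoods. The other genes split in the same direction, with medians of -0.22 and 0.17. Most of the difference in summed FPKM of the ribosomal protein genes thus lay in genes whose neighbours were lower too.

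Within that pattern, 76 of the 81 members were below their neighbourhood, against 50.2% of all measured genes and 67% of the 100 abundant others. The median distance was -0.21 for the members and -0.15 for the abundant others. The standard deviation of the members' ratios was 0.15 after subtraction, against 0.27 before it. The genes that stood farthest below were RPS27L (-0.63), RPSA (-0.58), RPLP1 (-0.55), RPS27 (-0.52) and RPLP0 (-0.51), and those above were RPL7L1 (0.17), RPS15 (0.11), RPL28 (0.06), RPL10 (0.03) and RPS21 (0.01). These were singled out after their values were seen. Only RPS27L remained 1.5-fold lower on this scale.

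**Figure D3:**
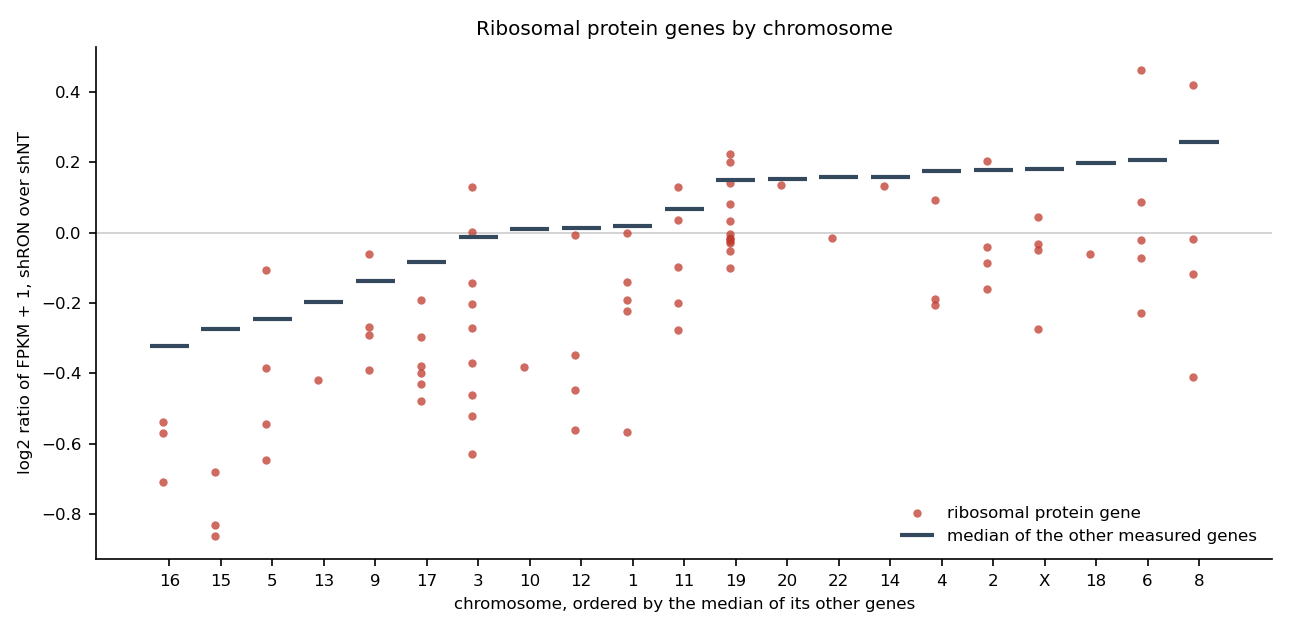
Log2 ratios of the measured ribosomal protein genes (red points) on the 21 chromosomes that hold any, ordered by the median of their other measured genes (dark bars). Members on chromosomes 16, 15 and 5 lie lowest, and those on chromosome 19 lie around 0.

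By chromosome, the median of the members was below the median of the other genes, of any level, on all 21 chromosomes that hold any. The abundant others were not compared by chromosome, and 67% of those 100 genes were below their neighbourhood too. Chromosomes 10, 13, 14, 18, 20 and 22 hold only 1 measured member each. The differences on chromosomes 14 and 20 were small, at -0.03 and -0.02. On chromosome 15 the 3 measured members were between -0.86 and -0.68, against a median of -0.27 over 398 other genes. On chromosome 16 the 3 members were between -0.71 and -0.54, against -0.32 over 614 others. On chromosome 5 the 4 members had a median of -0.46, against -0.25 over 550 others. The 12 members on chromosome 19 lay between -0.10 and 0.22, with a median of -0.01 against 0.15 over 924 others.

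The members of chromosome 8 followed position within it. RPL7, near 74.2 Mb, stood at 898 FPKM in shRON cells and 1194 FPKM in shNT cells (-0.41, neighbourhood -0.13). RPS20, near 57.0 Mb, stood at 697 in shRON and 757 FPKM in shNT cells (-0.12, neighbourhood 0.13), and RPL30, near 99.1 Mb, at 1436 in shRON and 1455 FPKM in shNT cells (-0.02, neighbourhood 0.24). RPL8, near 146 Mb, had a ratio of 0.42 in a neighbourhood of 0.55. The order of the 4 genes by ratio was thus the order of their neighbourhoods. On chromosome 17, RPL26 on the short arm had a ratio of -0.19 in a neighbourhood of 0.14, and the other 5 genes ran between -0.48 and -0.30 in neighbourhoods of -0.27 to -0.10. On chromosome 9, RPS6 (-0.06) had a neighbourhood of 0.11, against -0.14 to -0.07 for RPL35, RPL12 and RPL7A, whose ratios were -0.39 to -0.27.

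Of the members, 8 neighbouring pairs lay within 2 Mb of each other, and 5 of the 8 differed by under 0.2 in log2 ratio. No like count was made for member pairs farther apart or for other genes. Of the 81 members, 41 lay within 0.2 of 0, so the count alone does not show an effect of position. RPS26 and RPL41, 74.1 kb apart on chromosome 12, were at -0.56 and -0.45. RPL23 and RPL19, 351 kb apart on chromosome 17, were at -0.43 and -0.48. The widest pair was RPSA and RPL14 on chromosome 3, at -0.37 and 0.00. They lie 1.05 Mb apart and share a neighbourhood of 0.21. RPL14 stood at 509 FPKM in shRON cells and 508 FPKM in shNT cells.

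**Figure D4:**
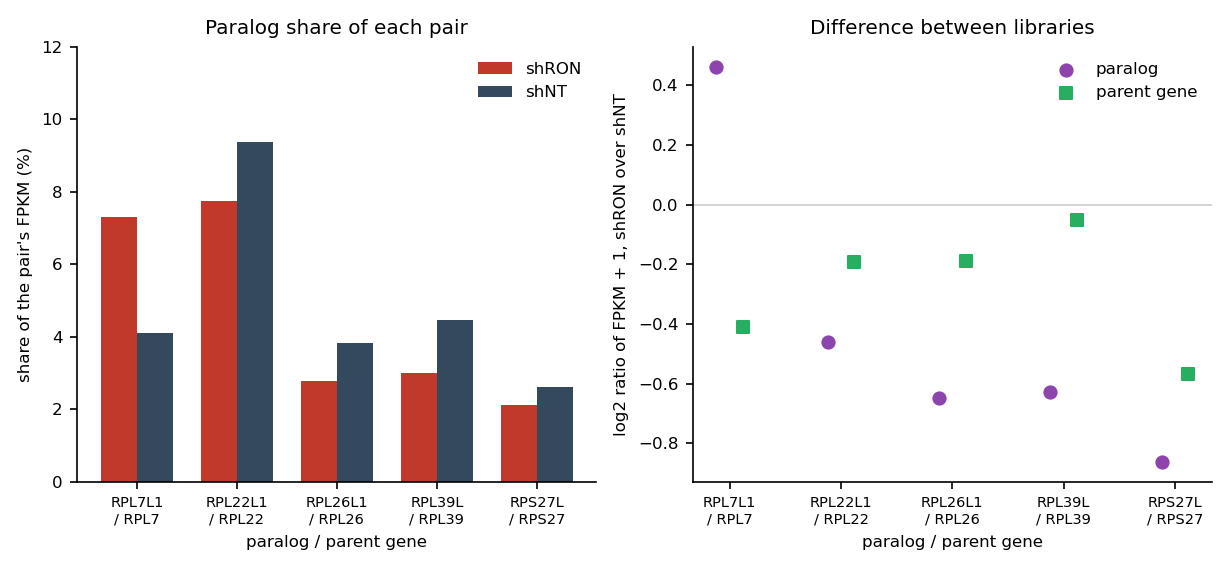
The 5 measured relatives (paralogs) of ribosomal protein genes. Left, the share of the pair's FPKM held by the relative in the shRON (red) and shNT (dark) libraries; right, the log2 ratio, shRON over shNT, of the relative (circle) and its parent gene (square).

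The relatives of core genes were expressed at lower levels than their parents, and 4 of the 5 measured had lower ratios than their parents. RPS27L, the relative of RPS27, stood at 34.9 FPKM in shRON cells and 64.3 FPKM in shNT cells (-0.86, interval of the ratio 0.489 to 0.602). It held 2.11% of the pair in shRON cells and 2.60% in shNT cells. RPL39L, best known from testis, stood at 30.7 in shRON and 48.0 FPKM in shNT cells (-0.63), while RPL39 was at -0.05. RPL26L1 stood at 25.8 in shRON and 41.0 FPKM in shNT cells (-0.65), while RPL26 was at -0.19.

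RPL22L1, the paralog of RPL22, stood at 13.5 FPKM in shRON cells and 19.0 FPKM in shNT cells (-0.46), and RPL22 at 161 in shRON and 184 FPKM in shNT cells (-0.19). RPL7L1 went the other way from RPL7. It stood at 70.8 FPKM in shRON cells and 51.1 FPKM in shNT cells (0.46, interval of the ratio 1.27 to 1.51), and its share of the pair was 7.31% in shRON cells and 4.11% in shNT cells. Each of the 5 lay in a neighbourhood of the same sign as its own ratio, 0.29 for RPL7L1 and between -0.32 and -0.18 for the others. Among genes that are not members, 72.5% were below 0 in neighbourhoods below 0, and 29.7% in neighbourhoods at or above 0. RPL3 and RPL10, whose relatives were not measured, were at -0.02 and 0.04.

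Transcript shares were steady. Of 24 members listed with several transcripts, 22 kept each transcript's share of the gene within 5 percentage points between the libraries. RPS24, which is spliced to alternative ends of its coding sequence, had its main transcript at 64.9% of the gene in shRON cells and 68.9% in shNT cells. RPS27A differed by 5.51 points in one transcript, at 48.6% of the gene in shRON cells and 43.1% in shNT cells. RPSA differed by 6.31 points through a minor transcript that carried the status LOWDATA in both libraries, at 31.1 FPKM in shRON cells and 0.0149 FPKM in shNT cells.

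Genes of ribosomal or ribosome-bound proteins outside the rule also had ratios below 0. FAU stood at 534 FPKM in shRON cells and 559 FPKM in shNT cells (-0.07), RPL36AL at 342 in shRON and 376 FPKM in shNT cells (-0.14), and GNB2L1, which encodes the scaffold RACK1, at 403 in shRON and 538 FPKM in shNT cells (-0.42). GNB2L1 lies on chromosome 5 in a neighbourhood of -0.24.

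**Figure D5:**
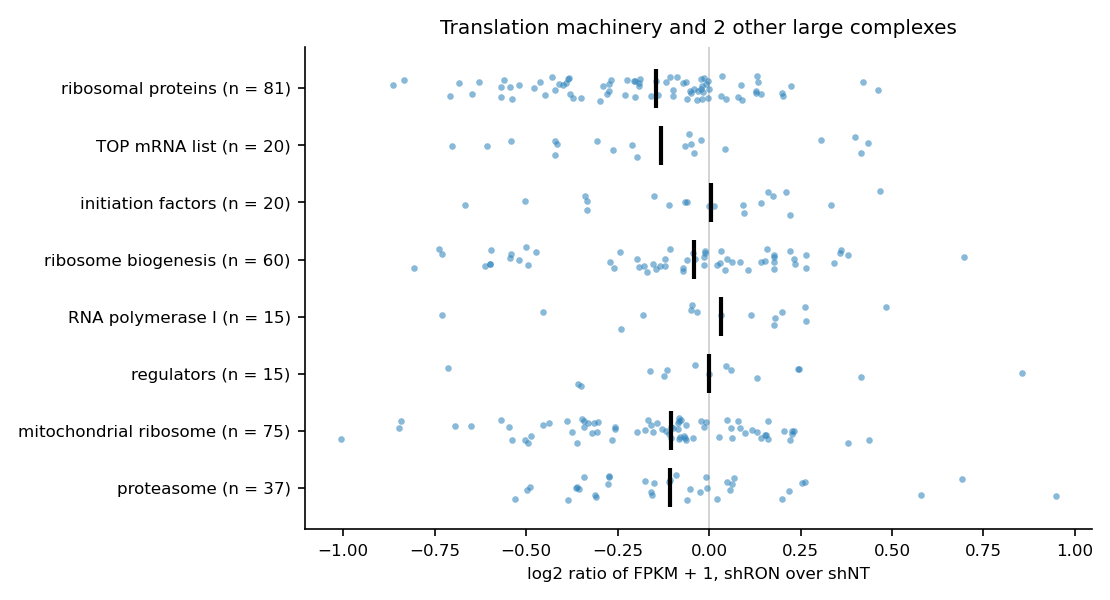
Log2 ratio of FPKM + 1, shRON over shNT, of each measured gene (points) and the median (black bar) for ribosomal proteins and 7 other gene lists. The ribosomal proteins have a median of -0.14, beside -0.13 for the TOP mRNA list and 0.03 for RNA polymerase I.

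Other genes of the pathway were counted at the same 1.5-fold, which 9.95% of all measured genes passed upward and 8.84% downward. Of 20 genes on a list of TOP mRNAs, which holds elongation factors, PABPC1, TPT1, FAU and GNB2L1, 0 were 1.5-fold higher and 2 lower, a share near that of all genes, with a median of -0.13. The 2 were BTF3, which binds nascent chains (220 FPKM in shRON cells and 358 FPKM in shNT cells, -0.70), and the elongation factor gene EEF1B2 (87.4 in shRON and 134 FPKM in shNT cells, -0.61). EEF1A1 stood at 1155 in shRON and 1385 FPKM in shNT cells (-0.26). PABPC1 (0.43), EIF3E (0.41), EEF1D (0.40) and EIF3H (0.31), all on chromosome 8 with neighbourhoods of 0.41 to 0.51, were higher, like RPL8.

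The medians of the next 3 lists were nearer that of all measured genes, 0.04, than that of the ribosomal protein genes, -0.14. Of 20 other initiation factors, 0 were higher and 1 lower by 1.5-fold (EIF3J, -0.67), with a median of 0.01. Of 60 ribosome biogenesis genes, 1 was higher, BOP1 (33.7 FPKM in shRON cells and 20.4 FPKM in shNT cells, 0.70), and 7 were lower, against 9.95% and 8.84% of all measured genes, with a median of -0.04. The lowest was SBDS, a factor for the last steps of the large subunit (49.99 in shRON and 88.1 FPKM in shNT cells, -0.81). Of 15 genes of RNA polymerase I and its factors, 0 were higher and 1 lower, the initiation factor gene RRN3 (14.01 in shRON and 23.9 FPKM in shNT cells, -0.73), with a median of 0.03. Of 9 assembly chaperones and importins, none reached 1.5-fold either way (median -0.15).

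Among 15 regulators, EIF4EBP1, the translational repressor set by mTOR, was higher (111 FPKM in shRON cells and 61.0 FPKM in shNT cells, 0.85) and MDM2 lower (16.3 in shRON and 27.4 FPKM in shNT cells, -0.71). MYC stood at 28.8 in shRON and 24.1 FPKM in shNT cells (0.25), LARP1 at 45.0 in shRON and 46.2 FPKM in shNT cells (-0.04) and MTOR at 9.96 in shRON and 8.26 FPKM in shNT cells (0.24). Mitochondrial ribosomal protein genes had a median of -0.10 with 0 of 75 higher and 5 lower by 1.5-fold, and proteasome genes one of -0.11 with 2 of 37 higher and 0 lower. Over all measured genes the shares were 9.95% higher and 8.84% lower. The medians of these complexes were thus close to that of the cytosolic ribosome.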

How the data were processed

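The authors deposited 1 transcript table per library, which per the file headers has Cufflinks' columns; the submitters' processing notes give build hg19 and also name DESeq without a role. The sources used here name no aligner or Cufflinks version, and do not say how reads matching several places were handled, which bears on genes with many processed pseudogenes. The deposited FPKM are per the file headers, and the deposited coverage, also per the file headers, was read as mean read depth over a transcript, a signal not scaled to library size. Listed transcript lengths, deposited by the authors, can include long untranslated ends.

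FPKM were summed over the transcripts of a gene. A gene was measured if either library reached 1 FPKM, small RNA genes left out. The log2 ratio is shRON over shNT of FPKM + 1, a pseudocount that understates the ratio of low genes. Genes were counted at 1.5-fold and 2-fold. With 1 library per group no test was run, and the planned design was kept; whole reads were not recovered from the FPKM, so no count test was made. Fragments were estimated as coverage times length over the median bases of a read pair (245 in shRON and 248 in shNT). That median was taken over long transcripts whose coverage times length lay between 150 and 325 bases. This preset range bears on the fragment numbers and the intervals. Intervals are approximate 95% Clopper-Pearson intervals that cover counting error only. Neighbourhoods are medians of the 25 nearest measured non-members on each side. Starts were written 1-based. Named genes were the 10 highest and 10 lowest ratios among members at 5 FPKM or more, the 5 most abundant, the pairs of relatives, and RPL5, RPL11, RPS6, RPSA, RPLP0, RPLP1, RPLP2 and RPS27A, with others as examples of position or role. Members and lists were chosen with earlier results of these data known. Scripts ran in Python 3.11.15 with pandas 2.3.3 and scipy 1.17.1 and were tested on simulated data. Promoter sequences are from RefSeq on GRCh38.p14, while gene positions are on hg19. Values of some genes are not reported here.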

Additional observations from a re-analysis of the deposited data

How the results depend on the processing

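With both libraries set to the same FPKM total, the median log2 ratio of the ribosomal protein genes was -0.086, that of large-subunit genes -0.13 and that of small-subunit genes -0.038. With neighbourhoods subtracted, the medians of all members and of small-subunit genes were -0.21, the large minus small difference was 0.0053, against -0.09 as reported, and 1 gene in place of 6 was 1.5-fold lower. Without the relatives of core genes, 3 were. The share of FPKM differed by -1.63 percentage points, shRON minus shNT, and by -1.66 with the most abundant transcript only, -0.73 as bases, -1.66 with ribosomal genes under other names added and -1.62 without the relatives. The correlation with neighbourhoods was 0.76 with 10 genes on each side and 0.72 with whole chromosomes, and without the members on chromosomes 15 and 16 it was 0.80, all chosen after seeing the data. Under those and the other settings, between 87.7% and 95.1% of the members were below their neighbourhood, among them 70 of 75 without chromosomes 15 and 16. The causes were not tested. Of 333 values of named genes under the alternatives, 75 moved by at least the distance from the middle to the end of their counting interval on the log2 scale. None of the 6 genes 1.5-fold lower changed sign, but 10 other named genes did: RPL8 (-0.13 in place of 0.42), RPL29, RPL37A, RPLP2, RPS18, RPS28 and RPS29 were below 0 with neighbourhoods subtracted, and RPL3, RPL11 and RPL39 above 0 at equal FPKM totals. At these levels counting error was small (a median of 0.05 to either side on the log2 scale), and the difference between cultures was not measured. No paired analysis was possible because each group has 1 library.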

Other observations

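The tables list 27 pseudogenes of ribosomal protein genes by name. They summed to 37.9 FPKM in shRON cells and 42.2 FPKM in shNT cells, and 11 reached 1 FPKM in at least 1 library. RPSAP58 stood at 8.31 FPKM in shRON cells and 11.2 FPKM in shNT cells, and RPL23AP7 at 10.2 FPKM in shRON cells and 8.196 FPKM in shNT cells. The sources used here do not say how reads were divided between these copies and the parent genes.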
